A study of Mus musculus with 30 samples.

Results

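Interferon-stimulated genes are transcribed when a cell senses an interferon, and 40 of them were followed here through the healing of a volumetric muscle loss injury, in which a piece of muscle is cut out of the tibialis anterior of the mouse lower leg. The 40 genes were taken by symbol from a list of antiviral effectors, sensors, transcription factors and interferon-inducible GTPases. All 40 had a row among the 26264 symbols measured, and all 40 were among the 17136 genes that passed the low-count filter. RNA sequencing libraries came from muscle at day 4, day 7, day 11 and day 15 after the injury and from uninjured muscle, in females and males, with 3 libraries for each sex and time point and 30 in all. Total RNA was used, and the labels give neither strain nor age, nor whether each library came from a separate mouse. The p-values therefore measure the spread between these libraries, which may be technical. The sexes were pooled at a time point (n = 6) unless stated. Values are CPM, the reads of a gene scaled to a common library size after TMM normalization, which offsets differences in composition between libraries.

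Type I interferons bind a receptor made of IFNAR1 and IFNAR2, whose kinases JAK1 and TYK2 phosphorylate STAT2 among other proteins. STAT2 joins IRF9 in a complex that binds the interferon-stimulated response element (ISRE) of target genes, while interferon gamma acts mainly at the gamma-activated site (GAS). The products block viral translation and replication, sense foreign nucleic acid, present antigen and feed back on the pathway. Leukocytes that enter injured muscle, stromal cells and muscle cells can all express them.

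RefSeq's promoter table held 30 of the 40 genes, and their sequences are shown because the choice of genes did not use them. Within the 250 bases before and 50 bases after the start site, 18 of the 30 (60%) held the ISRE core GAAANNGAAA on either strand, against 3.99% of the 27025 genes of the table. The GAS core TTCNNNGAA was found in 9 of the 30 (30%), against 9.55% of all genes. The 200 bases before the start follow for 5 genes that differ in their response below, with ISRE cores in capitals (RefSeq, GRCm38.p6, written 5′ to 3′ on the gene's strand). Oas3 had the largest estimated change at day 4, Ifit3 and Isg15 carried several cores, Irf7 had none in the window, and Gbp2 had a core and was called higher only at day 4.
Oas3, chr5:120777660-120777859, minus strand: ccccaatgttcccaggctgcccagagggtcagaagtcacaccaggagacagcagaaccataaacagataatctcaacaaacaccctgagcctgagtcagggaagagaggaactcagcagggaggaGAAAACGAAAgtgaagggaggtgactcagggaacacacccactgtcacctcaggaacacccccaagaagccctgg
Ifit3, chr19:34583329-34583528, plus strand: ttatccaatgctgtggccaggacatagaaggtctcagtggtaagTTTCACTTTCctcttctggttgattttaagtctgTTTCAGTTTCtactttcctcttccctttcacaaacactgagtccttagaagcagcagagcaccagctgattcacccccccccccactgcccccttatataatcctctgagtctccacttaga
Isg15, chr4:156200819-156201018, minus strand: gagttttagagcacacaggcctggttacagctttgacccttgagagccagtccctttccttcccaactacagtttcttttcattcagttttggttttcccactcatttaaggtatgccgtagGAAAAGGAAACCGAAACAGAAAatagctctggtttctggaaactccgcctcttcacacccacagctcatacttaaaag
Irf7, chr7:141266425-141266624, minus strand: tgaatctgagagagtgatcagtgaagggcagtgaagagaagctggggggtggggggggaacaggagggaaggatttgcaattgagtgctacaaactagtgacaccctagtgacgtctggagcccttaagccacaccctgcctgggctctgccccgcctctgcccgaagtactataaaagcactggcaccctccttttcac
Gbp2, chr3:142620463-142620662, plus strand: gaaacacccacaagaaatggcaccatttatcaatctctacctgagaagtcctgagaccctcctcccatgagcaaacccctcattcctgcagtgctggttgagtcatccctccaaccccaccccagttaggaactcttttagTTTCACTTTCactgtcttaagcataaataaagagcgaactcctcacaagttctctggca
In Isg15, 3 cores began 78, 72 and 66 bases before the start and overlapped. A core on the other strand reads TTTCNNTTTC, as in Ifit3 and Gbp2. A match describes the letters of the window and does not show that a factor bound there. At day 4, 14 of the 18 genes with a core, 11 of the 12 without one and all 10 genes not in the promoter table were called higher, with median log2 fold changes of 1.41, 1.75 and 2.52. Of all tested genes, 40.1% were called higher at that day.

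The library totals ranged from 13089999 to 57277336 counts, and the 40 genes together held 6136 to 143782 of them. Replicate 3 of the day 11 females went against its sex label. It had 0.109 CPM of Xist, the RNA of the inactive X chromosome, and 57.4 CPM of the Y-linked Ddx3y, against 83.0 to 1062 and 0 CPM in the other 14 libraries labelled female and 0 to 3.49 and 30.6 to 94.1 CPM in males. Leaving it out moved the log2 fold changes of the 40 genes at day 11 against uninjured muscle by -0.23 to 0.23, and day 11 levels below include it. For the interferon-stimulated genes, 4 libraries were the highest of their time point for more than 20 of the 40: replicate 2 of the day 11 females, replicate 3 of the day 4 males, replicate 3 of the uninjured females and replicate 3 of the day 7 females. Libraries were of bulk muscle, where fewer cells of a type and less RNA per cell cannot be told apart. The mean log2 CPM over the 40 genes was 2.52 before injury, 4.61 at day 4, 4.02 at day 7, 4.35 at day 11 (4.37 without the library that went against its label) and 3.61 at day 15.

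**Figure D1:**
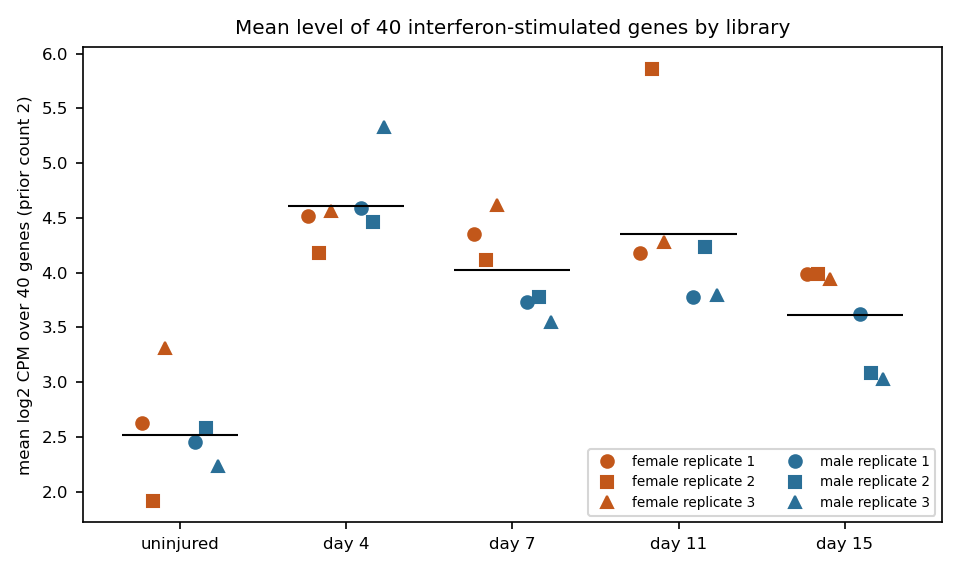
Mean log2 CPM over the 40 interferon-stimulated genes in each of the 30 libraries, by time point and labelled sex; each point is a library. Uninjured libraries lie between 1.92 and 3.31, day 4 libraries between 4.18 and 5.33, and replicate 2 of the day 11 females stands alone at 5.86.

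Most of the interferon-stimulated genes were higher after injury than in uninjured muscle at every time point. At day 4, edgeR's quasi-likelihood test called 35 of the 40 higher and 0 lower at an adjusted p under 0.05, where 40.1% of all tested genes were called higher and 33.0% lower. None was called lower at day 7 or day 11 either (29.9% and 29.7% of all genes). The numbers called higher were 31 at day 7 (41.6% of all genes), 36 at day 11 (42.7%) and 27 at day 15 (39.7%), and only Ifit3b, at day 15, was called lower (29.3%). The median log2 fold change of the 40 was 1.80, 1.32, 1.79 and 0.91 at days 4, 7, 11 and 15, against 0.17, 0.24, 0.32 and 0.26 over all genes. All 6 injured libraries lay above all 6 uninjured ones for 28 genes at day 4 (31.0% of all genes), 19 at day 7 (24.9%), 22 at day 11 (25.8%) and 12 at day 15 (24.1%). The 4 comparisons share the same uninjured libraries. Of the 40 genes, 26 were called higher at all 4 days, 5 at 3 days, 3 at 2 days, 4 at 1 day and 2 at none, while 28.7% of all tested genes were called higher at all 4 days. Leaving out replicate 3 of the day 11 females left 36 called higher at day 11, and leaving out replicate 2 left 33, without Igtp, Irgm1 and Cmpk2. Without replicate 2, the day 11 log2 fold changes were 3.84 for Oas3, 3.75 for Mx1, 2.23 for Isg15, 2.20 for Irf7, 1.57 for Ifit3 and 0.93 for Usp18.

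**Figure D2:**
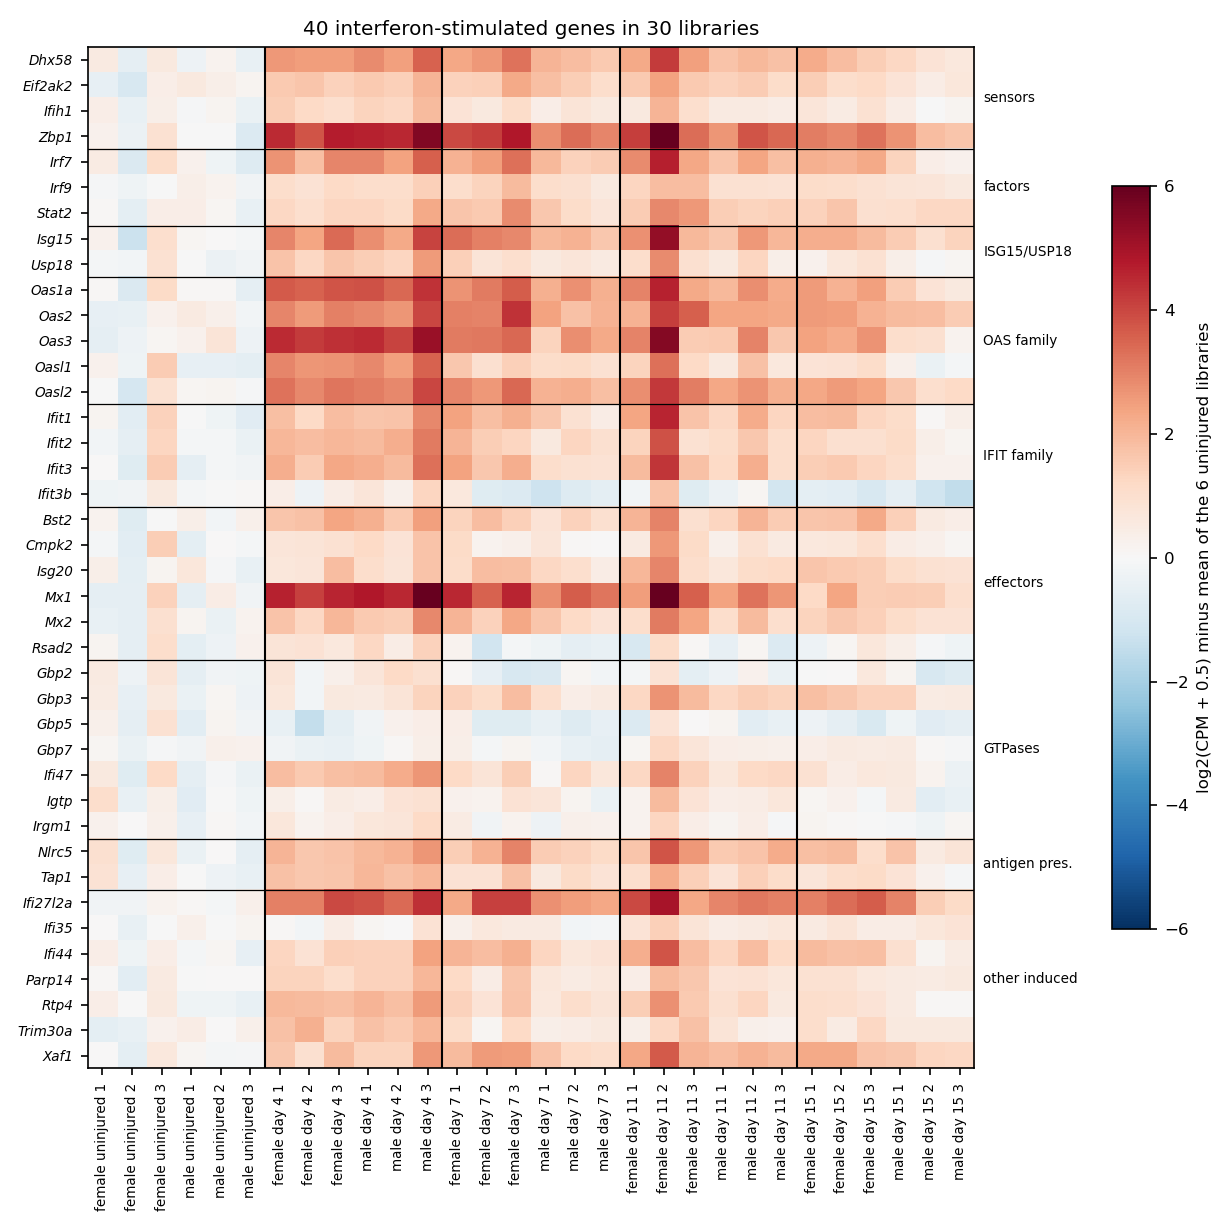
Level of each interferon-stimulated gene in each library, as log2(CPM + 0.5) minus the mean of the 6 uninjured libraries, with genes grouped by role and libraries by time point. The Oas3, Mx1 and Zbp1 rows rise most at day 4, and several GTPase rows stay near 0.

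**Figure D3:**
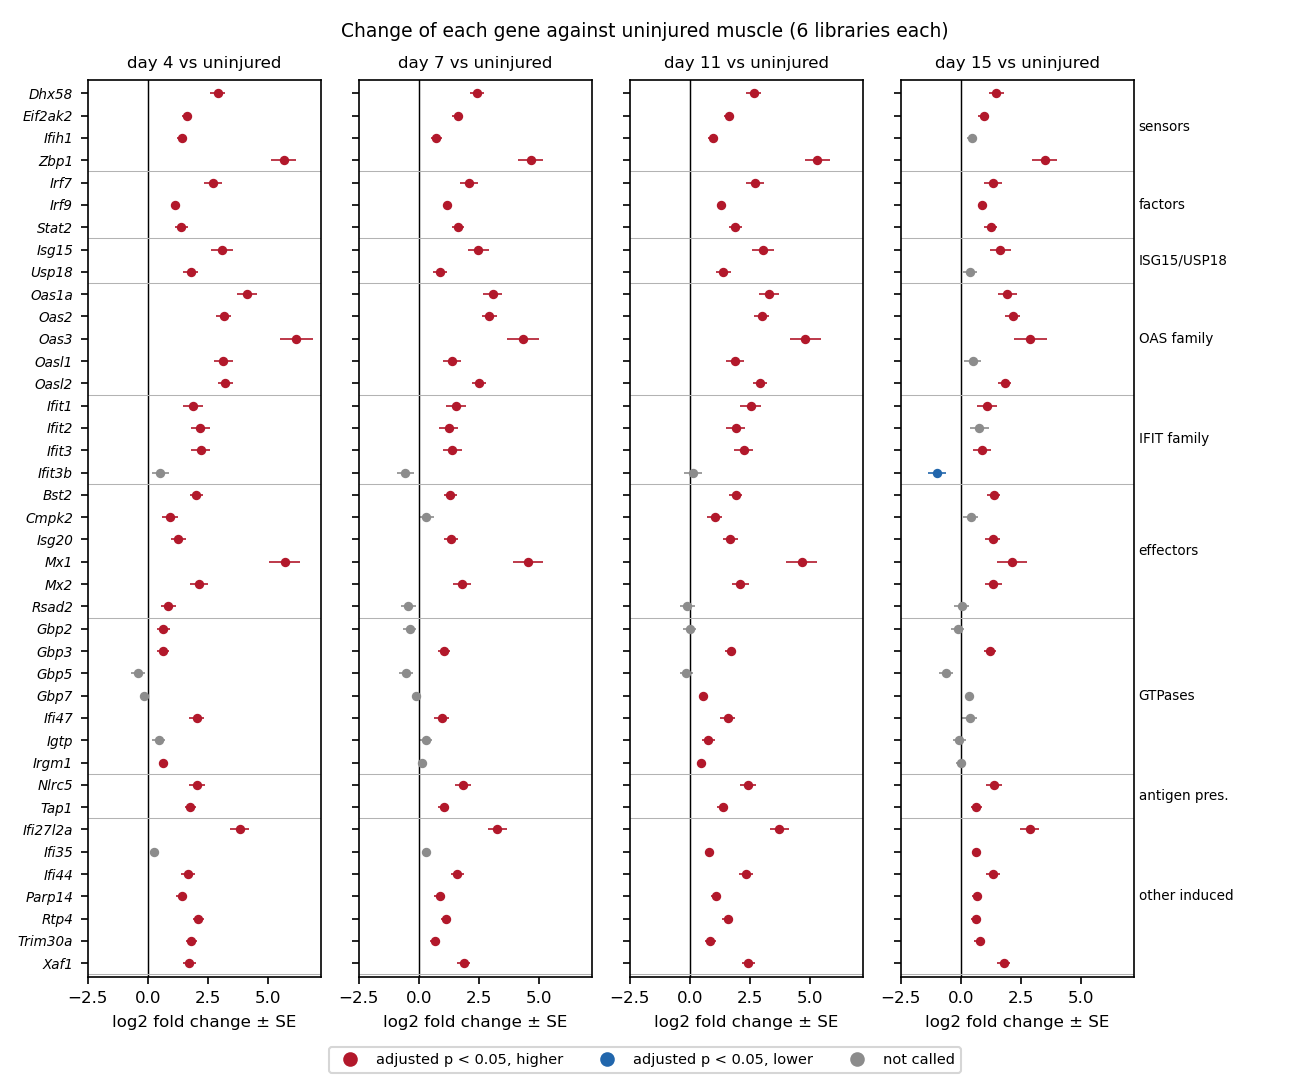
Log2 fold change of each gene at days 4, 7, 11 and 15 against uninjured muscle, with bars of 1 standard error; each comparison has 6 injured and 6 uninjured libraries. Oas3 is highest at day 4 at 6.20, and Ifit3b is lowest at day 15 at -0.99.

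The transcription factors of the response rose at all 4 days. Irf7, the factor that amplifies interferon production, had a lowest, median and highest level of 7.58, 14.4 and 30.9 CPM in the 6 libraries of uninjured muscle, 50.7, 103 and 172 at day 4, 37.2, 58.3 and 146 at day 7, 45.1, 74.6 and 367 at day 11 and 17.1, 47.5 and 69.1 at day 15. Levels of the other genes are given in the same way, as the lowest, median and highest of 6 libraries. The injured and uninjured libraries overlapped only at day 15. Its log2 fold change was 2.71 ± 0.38 (SE, n = 6 each) at day 4 (adjusted p = 5.6e-07), 2.08 ± 0.37 at day 7 (2.06e-05), 2.72 ± 0.38 at day 11 (6.52e-07) and 1.34 ± 0.36 at day 15 (0.00206). The 367 CPM belonged to replicate 2 of the day 11 females, and without it the day 11 mean was 69.8 ± 23.1 CPM (SD, n = 5). Irf9, the DNA-binding partner of STAT2, had 13.4, 15.9 and 20.9 CPM in uninjured muscle, 30.7, 34.8 and 44.6 at day 4 and 24.9, 29.7 and 35.8 at day 15. All 6 injured libraries exceeded all 6 uninjured ones for Irf9 at each of the 4 days, with log2 fold changes of 1.14, 1.19, 1.30 and 0.88, the last with an adjusted p of 1.14e-05. Stat2, the subunit specific to type I and III signalling, was also above uninjured muscle in all libraries of all 4 days. Its levels were 15.8, 26.1 and 32.2 CPM in uninjured muscle, 49.5, 59.1 and 120 at day 4 and 61.0, 68.6 and 180 at day 11, and its log2 fold changes were 1.41, 1.63, 1.90 and 1.24.

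All 4 nucleic acid sensors were called higher at days 4, 7 and 11 and 3 at day 15 (39.7% to 42.7% of all genes). Zbp1 had the largest change of them; it binds Z-form nucleic acid and can trigger cell death. Zbp1 had 0.0382, 0.442 and 1.27 CPM in uninjured muscle, 12.5, 21.9 and 44.8 at day 4, 6.12, 11.7 and 26.4 at day 7, 5.44, 11.1 and 86.3 at day 11 and 2.51, 6.03 and 8.54 at day 15. No injured library overlapped the uninjured range at any of the 4 days. Its log2 fold change was 5.67 ± 0.53 at day 4 (adjusted p = 1.01e-09) and 3.49 ± 0.51 at day 15 (1.94e-06). Uninjured libraries held only 1 to 29 counts of Zbp1, so the size of these changes rests on a reference near 0. Dhx58, which encodes LGP2, a regulator of the RNA sensors RIG-I and MDA5, had 18, 19.5 and 38.9 CPM at day 4, against 1.83, 2.79 and 4.57 in uninjured muscle, and a log2 fold change of 2.92 ± 0.31. Ifih1, which encodes MDA5 itself, had 4.37, 6.41 and 8.13 CPM in uninjured muscle, 12.7, 15.7 and 24.3 at day 4 and 5.95, 8.61 and 12.1 at day 15. Its injured libraries were above the uninjured ones at days 4, 7 and 11 and overlapped them at day 15, when the log2 fold change of 0.45 missed the threshold (adjusted p = 0.0641). Eif2ak2, the kinase PKR that halts translation on double-stranded RNA, was higher at all 4 days by 1.64, 1.62, 1.63 and 0.95.

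Active oligoadenylate synthetases make the second messenger that activates RNase L. The 5 genes of this family had the largest median change of the roles at each day: 3.24, 2.93, 3.00 and 1.92 on the log2 scale. All 5 were called higher at days 4, 7 and 11 and 4 at day 15 (39.7% to 42.7% of all genes). Oasl1 was not called at day 15 (0.48, adjusted p = 0.25). Oas3, whose promoter is printed above, had 0, 0.174 and 0.722 CPM in uninjured muscle, 11.4, 14.9 and 25.4 at day 4, 1.29, 5.13 and 7.30 at day 7, 1.53, 3.38 and 31.7 at day 11 and 0.324, 1.88 and 4.11 at day 15. Its groups overlapped only at day 15. The log2 fold change of Oas3 was 6.20 ± 0.67 at day 4 (adjusted p = 1.03e-08) and 2.89 ± 0.68 at day 15 (0.000564). Uninjured libraries held only 0 to 18 counts of Oas3, so the size of these changes rests on a reference near 0. Oas1a had 17.1, 20.6 and 31.6 CPM at day 4, against 0.375, 1.17 and 3.08 in uninjured muscle. Of its 50-base windows, 57.6% also occur in Oas1g, so the counting could have moved reads between these copies and its level is uncertain. Oasl1, which lacks the synthetase activity and curbs Irf7 translation in the mouse, had 0.916, 1.13 and 5.54 CPM in uninjured muscle, 11.0, 13.9 and 23.8 at day 4 and 1.08, 2.65 and 4.04 at day 15. Its day 4 libraries were all above the uninjured ones, while the day 15 libraries lay within their range.

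Isg15, a ubiquitin-like protein joined to other proteins during the response, had 1.42, 4.47 and 9.06 CPM in uninjured muscle, 22.3, 33.9 and 78.9 at day 4, 14.1, 27.1 and 48.1 at day 7, 14.1, 23.0 and 180 at day 11 and 8.75, 15.1 and 21.0 at day 15. Only the lowest of the day 15 libraries fell within the uninjured range. The log2 fold changes of Isg15 were 3.09 ± 0.45 (adjusted p = 1.12e-06), 2.48, 3.06 and 1.64 ± 0.43 (0.00164). Without replicate 2 of the day 11 females, which held the 180 CPM, Isg15 averaged 21.8 ± 7.18 CPM at day 11 (SD, n = 5). Usp18, which removes ISG15 and silences the receptor, had 3.09, 3.65 and 8.05 CPM in uninjured muscle, 10.4, 13.3 and 26.7 at day 4 and 3.83, 5.12 and 8.19 at day 15. Its ranges separated at day 4 and overlapped at the later days, and at day 15 the log2 fold change of 0.38 ± 0.30 was not called (adjusted p = 0.262).

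Among the IFIT genes, whose products bind viral RNA and block its translation, Ifit1, Ifit2 and Ifit3 were higher at days 4, 7 and 11, and Ifit1 and Ifit3 also at day 15. Ifit3 had 5.54, 8.38 and 28.4 CPM in uninjured muscle, 28.1, 44.7 and 97.8 at day 4, 17.4, 24.8 and 52.0 at day 7, 19.95, 34.5 and 191 at day 11 and 11.2, 21.9 and 29.0 at day 15. The 28.4 CPM came from replicate 3 of the uninjured females, and all other uninjured libraries were at or below 9.6 CPM, under every injured library. The log2 fold change of Ifit3 was 2.22 ± 0.40 at day 4 (adjusted p = 2.13e-05), 1.40 at day 7, 2.24 at day 11 (1.57 without replicate 2 of the day 11 females) and 0.88 ± 0.39 at day 15 (0.0455). The near-copy Ifit3b followed another course, with 5.56, 6.41 and 10.5 CPM in uninjured muscle, 5.46, 9.36 and 17.5 at day 4, 2.62, 3.82 and 10.8 at day 7 and 2.15, 3.73 and 4.56 at day 15. All 6 day 15 libraries of Ifit3b lay below all 6 uninjured ones (21.1% of all genes did so), with a log2 fold change of -0.99 ± 0.37 (adjusted p = 0.0192). The call was lost without replicate 3 of the uninjured females (-0.81, adjusted p = 0.0646) or replicate 3 of the day 15 males (-0.88, 0.0503), and scaling by library size alone turned Ifit3b to 0.05. Ifit3 shares 51.2% of its 50-base windows with Ifit3b, so the split of reads between them is uncertain.

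All 6 other antiviral effectors were called higher at day 4, and 4, 5 and 4 of them at days 7, 11 and 15. Of all genes, 39.7% to 42.7% were called higher at these days. Mx1, a dynamin-like GTPase that blocks influenza viruses, had 0.0833, 0.160 and 1.76 CPM in uninjured muscle, 14.3, 19.9 and 57.3 at day 4, 5.33, 9.66 and 19.8 at day 7, 4.04, 6.31 and 60.6 at day 11 and 1.22, 1.88 and 3.95 at day 15. Day 4, 7 and 11 libraries were all above the uninjured ones, and the day 15 libraries overlapped them. The log2 fold change of Mx1 at day 15 was 2.13 ± 0.64 (adjusted p = 0.00468). Its size rests on a reference near 0, as uninjured libraries held only 2 to 40 counts of Mx1. Rsad2, which encodes viperin, was higher only at day 4, with 14.9, 19.5 and 28.8 CPM, against 6.91, 10.4 and 22.6 in uninjured muscle (log2 fold change 0.86 ± 0.31, adjusted p = 0.0163). Its libraries overlapped the uninjured range even then, and its estimates at days 7, 11 and 15 were -0.45, -0.11 and 0.04. Bst2, the tether that holds budding virus at the cell surface, and Isg20, an RNA exonuclease, were called at all 4 days, with log2 fold changes of 1.30 to 2.02 and 1.28 to 1.68.

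The interferon-inducible GTPases, better known as targets of interferon gamma that attack intracellular pathogens, had the smallest median change of the roles at each day. Of these 7, 4 were called higher at day 4, 2 at day 7, 5 at day 11 and 1 at day 15, with median log2 fold changes of 0.64, 0.14, 0.55 and -0.01. The shares at day 7 and day 15 lay below the 41.6% and 39.7% of all genes called higher. Gbp2 had 9.61, 12.2 and 25.4 CPM in uninjured muscle, 12.8, 24.6 and 33.6 at day 4 and 7.17, 14.4 and 22.4 at day 15. The ranges overlapped at every day, and Gbp2 was called only at day 4 (0.64 ± 0.27, adjusted p = 0.0357), a call lost without replicate 3 of the day 4 males. Gbp5 had 6.11, 9.85 and 18.9 CPM in uninjured muscle, 3.31, 7.76 and 13.1 at day 4 and 5.01, 6.58 and 8.25 at day 15. All 4 estimates for Gbp5 were below 0 (-0.40, -0.52, -0.14 and -0.63) and none was called, the day 15 value having an adjusted p of 0.0556. Gbp3, another guanylate-binding protein, had its highest levels late: 11.7, 15.7 and 25.2 CPM in uninjured muscle, 22.5, 35.5 and 61.4 at day 7, 40.4, 45.1 and 111 at day 11 and 23.7, 44.1 and 58.9 at day 15. The day 11 libraries of Gbp3 were all above the uninjured ones, and it was called at all 4 days, at day 4 with 0.64 ± 0.24 (adjusted p = 0.0197), a call also lost without replicate 3 of the day 4 males, and at day 11 with 1.69 ± 0.24 (1.13e-06).

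Both antigen presentation genes were called higher at all 4 days, as were 28.7% of all tested genes. Tap1, which carries peptides into the endoplasmic reticulum for class I molecules, had 8.67, 11.2 and 23.6 CPM in uninjured muscle, 39.9, 43.3 and 51.6 at day 4, 19.0, 23.5 and 44.1 at day 7, 22.6, 30.9 and 61.1 at day 11 and 11.8, 21.7 and 28.3 at day 15. Its day 4 libraries lay together above every uninjured one, while the later days overlapped them. The log2 fold change of Tap1 was 1.78 ± 0.23 at day 4 (adjusted p = 2.4e-07) and 0.64 ± 0.23 at day 15 (0.0158), and that of Nlrc5, the activator of class I transcription, was 2.04 and 1.36. Of the 7 other induced genes, 6, 6, 7 and 7 were called higher at days 4, 7, 11 and 15 (39.7% to 42.7% of all genes). Ifi27l2a, a small membrane protein gene, had 3.17, 3.72 and 4.73 CPM in uninjured muscle, 33.9, 52.6 and 89.6 at day 4, 20.03, 26.0 and 74.0 at day 7, 20.8, 36.6 and 133 at day 11 and 9.12, 33.3 and 51.8 at day 15. Every injured library of Ifi27l2a exceeded every uninjured one, and its log2 fold change was 3.82 ± 0.40 at day 4 and 2.86 ± 0.38 at day 15 (adjusted p = 5.22e-07). Per kilobase of exon, Ifi27l2a was the most abundant of the 40 at day 4 with 119 CPM per kb, followed by Bst2 with 94.3 and Isg15 with 53.2, and Gbp5 the least with 1.26. Exons of Tap1 overlap those of Psmb9 on the opposite strand over 3.87% of their length, and without a stated strand setting reads there cannot be told apart.

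**Figure D4:**
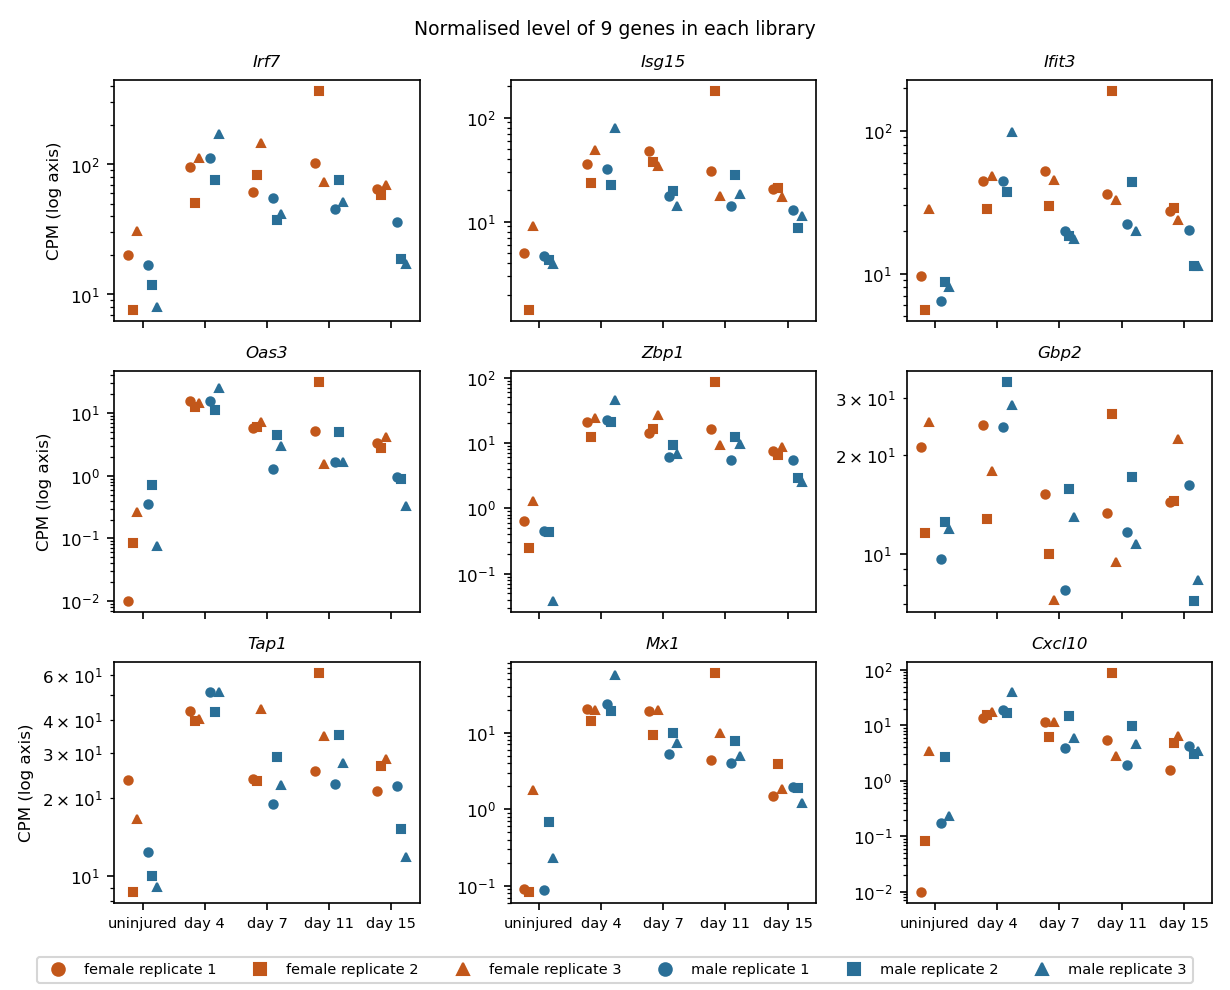
CPM in each library, on a log axis, for Irf7, Isg15, Ifit3, Oas3, Zbp1, Gbp2, Tap1, Mx1 and Cxcl10 by time point and labelled sex; a CPM of 0 is drawn at 0.01. Zbp1 never overlaps the uninjured range, Gbp2 overlaps it at every day, and replicate 2 of the day 11 females is the highest point of day 11 for Irf7, Isg15 and Cxcl10.

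Between injured time points, 17 of the 40 genes were lower at day 7 than at day 4, and 26 were lower at day 15 than at day 4. Against day 4, 17 of the 40 were called lower at day 7 and 0 higher, where 16.7% of all genes were called lower and 18.5% higher, with a median of -0.61 on the log2 scale. All 6 day 7 libraries lay below all 6 day 4 libraries for 6 genes (7.24% of all genes). Oas3 fell by 1.86 ± 0.50 (adjusted p = 0.00598) and Oasl1 by 1.78 ± 0.35 (0.000712), and Stat2 and Gbp3 had estimates of 0.23 and 0.41 that were not called. The count was 10 without replicate 3 of the day 4 males and also without replicate 1 of the day 7 males. Between day 11 and day 7, edgeR called 0 of the 40 (0.0584% of all genes), with 9 at an unadjusted p under 0.05, while DESeq2 called 1. The largest of these estimates were those of Ifit1 (0.97 ± 0.39, adjusted p = 0.5) and Ifit3 (0.83), and the smallest those of Eif2ak2 (0.02) and Oas2 (0.07). All 40 estimates were above 0, with a median of 0.46, which was 0.11 with 12 estimates below 0 once replicate 2 of the day 11 females was left out, and 0.57 without replicate 3. Day 11 and day 4 held the highest means for different genes: the highest mean CPM was at day 4 for 22 genes and at day 11 for 18, and by the median, which a lone library moves less, at day 4 for 28 and at day 11 for 9.

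At day 15, 13 of the 40 were called lower than at day 11 and 0 higher (2.25% and 2.00% of all genes), and 39 of the 40 estimates were below 0, the exception being Rsad2 at 0.15. Mx1 fell by 2.52 ± 0.55 (adjusted p = 0.00912), and it was the only one of the 40 whose 6 day 15 libraries lay below all 6 day 11 libraries (0.928% of all genes). Oas3 fell by 1.92 ± 0.53 (0.0363), and by 0.95 (0.295) without replicate 2 of the day 11 females. Without replicate 2 of the day 11 females, 0 of the 40 were called by edgeR, although 38 estimates were below 0 and 20 had an unadjusted p under 0.05. Mx1 then fell by 1.62 (adjusted p = 0.0738). Other libraries moved this count too. It was 22 without replicate 3 and 20 without replicate 1 of the day 11 females, 4 and 6 without replicates 2 and 3 of the day 11 males, 6, 5 and 3 without replicates 1, 2 and 3 of the day 15 females, and 2 without either replicate 2 or 3 of the day 15 males, and DESeq2 on all libraries called 21. Against day 4, 26 were lower at day 15 and 2 higher (27.0% and 25.1% of all genes), and 18 lay wholly below the day 4 libraries (19.4%). The largest falls were in Mx1, by 3.58 ± 0.57 (adjusted p = 1.53e-05), and in Oas3, by 3.31 ± 0.54 (2.29e-05). The 2 higher genes were Gbp3 (0.58 ± 0.24, adjusted p = 0.0438) and Gbp7 (0.49 ± 0.17, 0.0156), guanylate-binding proteins whose estimates from uninjured muscle at day 15 were 1.21 and 0.34. The count of 2 was 1 without replicate 1 of the day 4 females, replicate 2 of the day 4 males or replicate 1 or 2 of the day 15 females, and 0 without replicate 2 of the day 4 females, replicate 1 of the day 4 males or replicate 1 of the day 15 males.

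The interferon-stimulated genes had a larger median spread between libraries than the typical gene had at each time point, with close values at day 7. Their median standard deviation on the log2 scale was 0.573 before injury, 0.419 at day 4, 0.540 at day 7, 0.825 at day 11 and 0.465 at day 15, against 0.359, 0.264, 0.499, 0.435 and 0.362 over all tested genes. Without the library that went against its label, the day 11 values were 0.872 and 0.365. Both pairs of day 11 values include replicate 2 of the day 11 females, and neither was recomputed without it. The 40 were not compared with genes of matched level. All these values pool the sexes. The standard deviation of the library means over the 40 genes was 0.448 at day 15, but 0.028 within females and 0.329 within males. At day 7 it was 0.409, 0.253 and 0.117. In uninjured females, day 4 males and day 11 females it was 0.698, 0.471 and 0.946, above the pooled 0.467, 0.385 and 0.770. In uninjured males, day 4 females and day 11 males it was 0.173, 0.211 and 0.255, below the pooled values. The day 11 female value includes the library that went against its label. Replicate 2 of the day 11 females was the highest of its 6 libraries for 38 of the 40 genes. Its median log2 difference from the mean of the other 5 was 1.70 over the 40, and 0.0071 over all genes. By role the median difference ran from 1.2 for the transcription factors and 1.21 for the GTPases to 2.58 for Isg15 and Usp18 and 2.67 for the IFIT genes. Replicate 3 of the day 4 males was the highest for 36 of the 40, with a median difference of 0.86, and replicate 3 of the uninjured females for 26, with 0.77. Replicate 3 of the day 7 females was the highest for 22, with 0.82, and without it 30 genes were called higher at day 7 than in uninjured muscle.

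**Figure D5:**
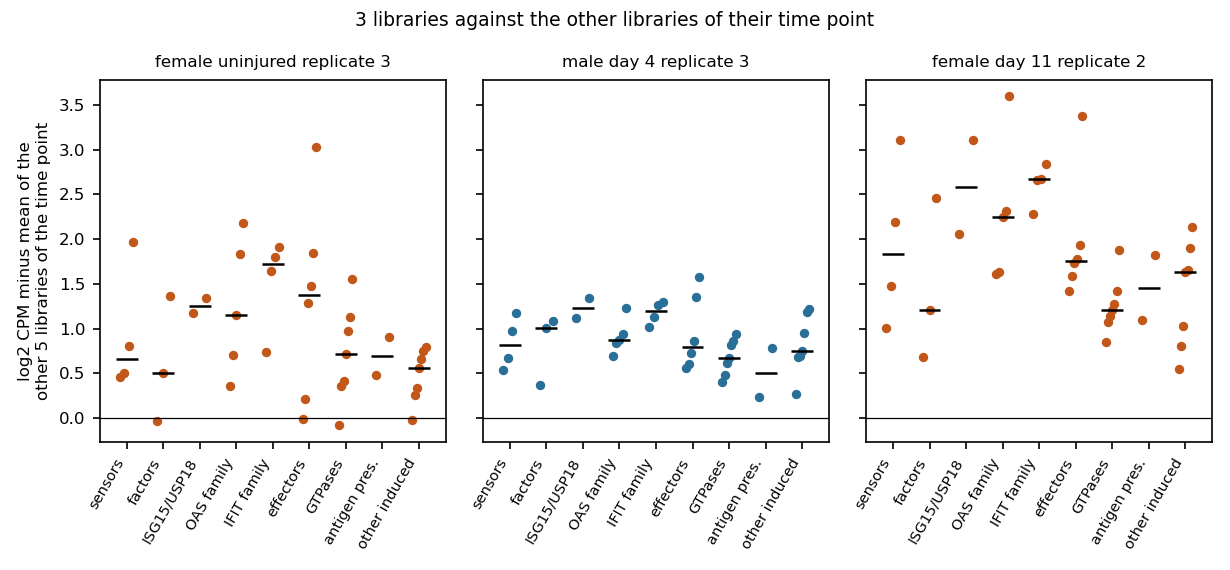
Log2 difference of each interferon-stimulated gene in a library from the mean of the other 5 libraries of its time point, by role, for replicate 3 of the uninjured females, replicate 3 of the day 4 males and replicate 2 of the day 11 females. Almost all points lie above 0, and those of the day 11 library reach 3.60.

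Markers of macrophages, T cells and plasmacytoid dendritic cells were also higher in injured muscle. All 12 macrophage markers were called higher at day 4 and 11 of the 12 at each later day (39.7% to 42.7% of all genes). Their summed levels were 50.2 to 153 CPM in uninjured libraries and 2036 to 2893, 604 to 1825, 223 to 2149 and 251 to 976 at days 4, 7, 11 and 15. The 9 T cell markers summed to 10.7 to 77.3 CPM at day 11, against 0.5 to 1.68 in uninjured muscle, and the 7 plasmacytoid dendritic cell markers to 28.9 to 47.1 CPM at day 4, against 3.33 to 5.89 in uninjured muscle. The 6 B cell markers summed to 11.1 to 19.5 CPM at day 4, against 1.32 to 8.95 in uninjured muscle. Under RLE scaling, 2 of these 6 were called higher and 1 lower at day 4 (40.1% and 33.0% of all genes under TMM). Of 9 mature muscle fibre genes, 8 were lower at day 4 (33.0% of all genes), with sums of 9076 to 57012 CPM, against 304077 to 443242 in uninjured muscle. The neutrophil markers Ly6g and Elane had no count in uninjured libraries, and the natural killer marker Klra8 had none in any library. Marker levels also moved with the library that stood apart at day 11: it was the highest of the 6 for 11 of 12 macrophage markers (sum 2149 CPM, others 223 to 1313), 9 of 9 T cell markers (77.3, others 10.7 to 32.3), 7 of 7 natural killer markers (50.03, others 3.57 to 13.5) and 6 of 8 fibroblast markers (23940, others 4045 to 16308). In replicate 3 of the day 4 males these sums lay within the range of the other 5: 2498 CPM of macrophage markers (others 2036 to 2893), 12.9 of T cell markers (6.64 to 14) and 13.3 of natural killer markers (6.01 to 19.0). In replicate 3 of the uninjured females, macrophage markers summed to 55.5 CPM (others 50.2 to 153). In replicate 3 of the day 7 females the sum was 1065 CPM for macrophage markers (others 604 to 1825), 22.5 for T cell markers (9.11 to 28.5) and 15.9 for natural killer markers (5.07 to 12.7). Without the library that went against its label, the day 11 ranges began at 406 CPM for macrophage, 12.6 for T cell and 6.15 for natural killer markers, with the same highest values. The part of these cell types in the levels of the interferon-stimulated genes was not tested.

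Interferon transcripts themselves were scarce. Of 21 ligand genes, only Ifng, the interferon of T and natural killer cells, passed the low-count filter. No uninjured library had an Ifng count, and the 6 libraries of days 4, 7, 11 and 15 had 56, 43, 80 and 6 counts, with means of 0.147, 0.133, 0.324 and 0.0378 CPM at the injured days. Ifng was present in 5 libraries at each of days 4, 7 and 11 and 3 at day 15, and adjusted p was 0.00992, 0.0102, 0.00118 and 0.149, with 0.0235 at day 11 without replicate 2 of the females. Ifnb1, the type I interferon made early by many cell types, had 14 counts at day 4, 2 at day 7 and 0 at the other time points. Ifna2, Ifna7, Ifna9, Ifnab, Ifne, Ifnk, Ifnz, Ifnl2 and Ifnl3 had at most 10 counts at any time point. Both reads of a pair appear to have been counted, so the number of fragments behind these counts may be lower. Of 6 receptor genes, 5 were higher and 1 lower at day 4 (40.1% and 33.0% of all genes). Ifnar1 averaged 74.8 ± 6.70 CPM at day 4, against 23.0 ± 2.29 in uninjured muscle (SD, n = 6 each), a log2 fold change of 1.70 ± 0.15 (adjusted p = 3.72e-10), and Ifnar2 58.1 CPM, against 11.9. These 2 chains of the type I receptor remained above uninjured muscle to day 15, by 1.03 and 1.54. Il10rb, a chain shared with interleukin-10 receptors, averaged 85.9 CPM at day 4, against 11.4 in uninjured muscle, and Ifngr1 changed by 0.94 at day 4 and 0.49 at day 15, with 0.23 and 0.14 at days 7 and 11 not called. Ifnlr1, the type III chain, was called only at day 4 (1.64, adjusted p = 0.0278). The lower gene was Ifngr2, a chain of the interferon gamma receptor, at 89.9 ± 12.3 CPM at day 4, against 167 ± 49.0 in uninjured muscle (-0.90), which turned to 0.39 under scaling by library size alone.

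Downstream of the receptors, Irf1, an interferon-induced factor, changed by 0.97, 0.91, 1.14 and 0.66 on the log2 scale at days 4, 7, 11 and 15. Irf8, a factor of the myeloid lineage, changed by 2.82, 2.13, 1.63 and 0.71, while Jak1 was called lower at -0.62, -0.74, -0.81 and -0.69, but at 0.69, 0.40, 0.33 and 0.36 under scaling by library size alone. Of 13 nucleic acid sensors and adaptors outside the 40, 12 were higher and 1 lower at each day. Of all genes, 39.7% to 42.7% were higher and 29.3% to 33.0% lower. Tlr7 and Tlr9, the endosomal sensors of RNA and DNA, changed by 6.71 and 7.00 at day 4. The lower sensor or adaptor was Mavs, the mitochondrial adaptor of RIG-I and MDA5, at -1.22, -1.51, -1.96 and -1.81, which at day 4 was at 0.08 under scaling by library size alone. Of 10 genes that dampen the pathway, 7, 6, 6 and 4 were higher and 2, 1, 1 and 2 lower; 39.7% of all genes were called higher at day 15. Socs3, an inhibitor of cytokine receptor kinases, changed by 2.58, 2.09, 1.54 and 3.23, and Ptpn6, a phosphatase of leukocytes, by 5.57, 4.70, 4.28 and 2.69. Socs1, the related inhibitor of interferon receptors, was called at none of the 4 days. Leaving out the library that went against its label moved the day 11 changes of 110 pathway genes by -0.33 to 0.29, with 4 calls lost (Ptpn2, Gbp6, Gbp9 and Gbp2b), 2 gained (Socs1 and Psmb10) and no called sign changed.

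Of 69 further interferon-stimulated genes, 55, 53, 59 and 46 were called higher and 1, 3, 0 and 4 lower at the 4 days. Of all tested genes, 40.1%, 41.6%, 42.7% and 39.7% were called higher and 33.0%, 29.9%, 29.7% and 29.3% lower. Slfn1 and Ms4a4c, the 2 with the largest change at day 4, changed by 6.70 and 6.48. Cxcl9, a chemokine induced by interferon gamma, changed by 1.5, 1.53, 2.61 and 1.5. Cxcl10, a chemokine that also draws T cells, changed by 4.15 ± 0.84 (adjusted p = 8.81e-05), 3.01, 3.59 and 1.84. In replicate 2 of the day 11 females Cxcl10 reached 89.0 CPM, against 1.96 to 9.64 in the other day 11 libraries, and without it the day 11 change of Cxcl10 was 2.10 (adjusted p = 0.00891) and that of Cxcl9 1.96 (2.16e-05). That library was also the highest of its time point for 61 of the 69 further genes, and replicate 3 of the day 4 males for 54 of the 69.

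Females and males, 3 libraries each, were tested against each other directly only in uninjured muscle. At the injured days the test compared their changes from uninjured muscle, and levels were set side by side without a test. In uninjured muscle edgeR called 0 of the 40 (0.642% of all genes), with 4 at an unadjusted p under 0.05 and 0 by DESeq2. The sex difference in the response was called for 0 of the 40 at each day (0.0467%, 0.123%, 0.0584% and 0.210% of all genes at days 4, 7, 11 and 15), with 7, 6, 8 and 3 at an unadjusted p under 0.05 and 0 by DESeq2. The mean log2 CPM over the 40 was 4.11 to 4.62 in females and 3.55 to 3.77 in males at day 7, and 3.94 to 3.99 in females and 3.03 to 3.63 in males at day 15. These ranges did not overlap, while at day 4 the libraries were at 4.18 to 4.56 in females and 4.46 to 5.33 in males. The 3 female libraries all exceeded the 3 male ones for 2 of the 40 before injury (11.8% of all genes), for 0 at day 4 (4.14%), for 14 at day 7 (2.32%) and for 23 at day 15 (12.1%). Marker sums of all 3 day 15 females were also above those of all 3 day 15 males: 573 to 976 CPM in females and 251 to 533 in males for macrophages, 128 to 170 and 71.8 to 115 for inflammatory monocytes, 5.34 to 9.37 and 2.66 to 4.01 for natural killer cells, and 23.1 to 33.2 and 14.8 to 21.2 for plasmacytoid dendritic cells. Neutrophil and B cell marker sums also separated in this direction, T cell and conventional dendritic cell sums overlapped, and at day 7 the sums of all these lists overlapped. The separation of the female and male means of the 40 genes at days 7 and 15 was not tested. Nor was the part of these cell types in it. The females all lay below the males for 3 of the 40 at day 4 (4.62% of all genes) and for 0 in uninjured muscle and at days 7 and 15. Day 11 is left out of these counts because the female group there includes the library that went against its label. Without that library the sex difference in the day 11 response was still called for 0 of the 40.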

How the data were processed

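RNA extraction and library preparation were done commercially for all 30 libraries, per the labels' protocols. STAR, edgeR and the mm39 assembly are named in the submitters' processing notes, with no versions. Strand handling is not given in the sources used here, nor is the annotation. The authors deposited whole-number read counts per gene symbol for each library, not normalized, and each library's total is the sum of these counts. Of counts from 1 to 20, 65.5% to 77.5% were even by library, as when both reads of a pair are counted, so counts halved and rounded were tried. No deposited column was left unused.

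Libraries were grouped by labelled sex and time point. Counts were fitted in edgeR 4.0.16 (limma 3.58.1, R 4.3.3) with TMM scaling, 10 groups, filterByExpr's low-count filter (9128 of 26264 genes removed) and the quasi-likelihood F test. Sexes were averaged with equal weight, and p-values were adjusted by Benjamini-Hochberg over all 17136 genes, with 0.05 as the threshold. Log2 CPM used a prior count of 2. TMM scaling factors averaged 0.527 in uninjured libraries and 1.30, 1.19, 1.16 and 1.08 at days 4, 7, 11 and 15. Scaling by library size alone moved the median log2 fold change of all genes to 1.47, 1.42, 1.46 and 1.30 at days 4, 7, 11 and 15, against 0.17, 0.24, 0.32 and 0.26 with TMM. The tests were checked on simulated counts with the same spread for all genes and few changed genes. That check did not cover a shift in composition such as the TMM factors show. No pair of libraries of a group agreed within counting noise (lowest chi-square per degree of freedom 16.2). Members, gene lists and tests were chosen with earlier results of these data known. By rule, library levels were given for the 2 members with the largest and the 1 with the smallest log2 fold change at each day, and for Irf7, Irf9, Stat2, Isg15, Usp18, Ifih1, Ifit3, Oas1a, Mx1, Zbp1, Gbp2, Tap1 and Ifi27l2a; between days the 2 largest changes in each direction were named. Levels of Dhx58, Oasl1, Rsad2 and Gbp3 were added after their values were seen. The fits were repeated with RLE factors, with library size alone, without the filter, with a stricter filter (CPM above 1 in 3 libraries), with DESeq2 1.42.0, with a replicate block, with only the groups compared, with a fold threshold, and with each library left out. A prior count of 0.5 in place of 2 was also tried. For pathway genes, other scaling and the removal of single libraries were chosen after seeing the data. Promoters came from RefSeq (GRCm38.p6), not from the build of the counts, and exon lengths from a GENCODE annotation of GRCm38. Each level is limited by counting error beside the spread between libraries. Results for 1 gene of the pathway are not reported here.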

Additional observations from a re-analysis of the deposited data

Results flagged for a closer look

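Sets of 6 libraries were screened for 40 genes at 5 time points. In 64 of the 200 sets, the highest library lay further from its nearest neighbour than 0.625 of the whole range, Dixon's 95% critical value. By chance that value is passed in about 1 in 20 sets if the values are normally distributed. CPM on a linear scale with both sexes pooled need not be so distributed, so the 64 cannot be set against this rate. All 64 were high, and 58 of them came from 3 libraries. The genes of a library are not independent, so these are not 64 separate events, and no cause was tested. Values are CPM, with the nearest other library of the time point after each.

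Replicate 2 of the day 11 females was far above its time point for 29 genes, in every role. Among sensors and transcription factors these were Irf7 with 367 CPM (nearest 103), Zbp1 86.3 (16.2), Dhx58 61.2 (18), Eif2ak2 37.2 (20.6) and Ifih1 27.1 (12.7). The IFIT genes and Mx1 were also far above: Ifit3 191 (43.8), Ifit1 124 (26.1), Ifit2 96.9 (20.8), Ifit3b 23.6 (7.39) and Mx1 60.6 (9.78). The oligoadenylate synthetases followed the same pattern with Oasl2 151 (67.8), Oas1a 38.9 (12.2), Oas3 31.7 (5.18) and Oasl1 19.9 (6.51), and Isg15 and its protease did so with 180 (30.9) and 32.2 for Usp18 (10.6). Other effectors and induced genes were Bst2 164 (85.6), Xaf1 92.5 (36.2), Ifi35 77 (49.9), Rtp4 42.7 (18.2), Cmpk2 42.6 (15.6), Ifi44 40 (13.2) and Rsad2 23.8 (11.7). GTPases and antigen presentation genes were Gbp3 111 (62.7), Igtp 75.9 (35.7), Irgm1 60 (32.2), Ifi47 35.9 (11.5), Nlrc5 69.9 (30.8) and Tap1 61.1 (35.2).

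Replicate 3 of the day 4 males stood apart for 19 genes. The synthetases were Oasl2 128 (77.2), Oas2 89 (44.4), Oas1a 31.6 (21.7), Oas3 25.4 (15.6) and Oasl1 23.8 (15.5), and the IFIT genes Ifit3 97.8 (48.3), Ifit2 59.1 (30.7) and Ifit1 38.2 (18.6). The others were Stat2 120 (60.5), Parp14 75.7 (49.5), Mx1 57.3 (23.3), Zbp1 44.8 (24.4), Dhx58 38.9 (23.7), Rtp4 37.3 (25.8), Nlrc5 32 (21.5), Usp18 26.7 (14.3), Cmpk2 23.3 (15.8), Ifi44 15.6 (7.59) and Mx2 12.8 (6.62).

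Replicate 3 of the uninjured females stood apart for 10 genes: Ifit3 28.4 (9.6), Cmpk2 19.3 (6.9), Ifit2 16.5 (5.94), Ifit1 13.3 (5.38), Ifit3b 10.5 (7.17), Usp18 8.05 (3.94), Oasl1 5.54 (2.02), Oas1a 3.08 (1.2), Mx2 3.03 (1.56) and Mx1 1.76 (0.682). The remaining 6 were Stat2 174 (78.7), Oas2 111 (44.7) and Nlrc5 40.8 (21.9) in replicate 3 of the day 7 females, Gbp5 13 (6.99) and Ifit3b 10.8 (4.38) in replicate 1 of the day 7 females, and Mx1 3.95 (1.97) in replicate 2 of the day 15 females.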

How the results depend on the processing

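Against uninjured muscle, the counts called higher at days 4, 7, 11 and 15 kept within 1.5 times under all 10 other settings: with RLE scaling they were 35, 31, 36 and 27, and with library size alone 40, 39, 40 and 38. The count called lower at day 15 was 0 under library size alone or with a log2 fold threshold of 1, and 2 with only the groups compared. For day 7 against day 4, the fold threshold gave 8 lower. DESeq2 called 1 higher at day 11 against day 7 and 21 lower at day 15 against day 11, where only the groups compared gave 2 and leaving out replicate 2 of the day 11 females, replicate 3 of the day 4 males and replicate 3 of the uninjured females together, a setting chosen after seeing the data, also gave 2. At day 15 against day 4, the count called higher was 1 with RLE scaling, no filter or DESeq2, and 0 with library size alone or the fold threshold.

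Leaving out each library gave 32 to 36 higher at day 4, 30 to 32 higher and 0 to 2 lower at day 7, 33 to 36 higher at day 11, and 24 to 30 higher and 0 to 2 lower at day 15. Between days it gave 10 to 17 lower for day 7 against day 4, 0 to 22 lower for day 15 against day 11, and 0 to 3 higher and 22 to 28 lower for day 15 against day 4.

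Libraries with the same replicate number had a mean correlation of 0.0125 (135 pairs), and those with different numbers -0.0063 (270 pairs). Of the 30 libraries, 12 lay closest to their own number. The pairs joined both sexes, so this check could miss a pairing within a sex. The replicate block gave 35, 31, 36 and 27 higher, 1 lower at day 15, 16 lower for day 7 against day 4, 10 for day 15 against day 11, and 2 higher and 25 lower for day 15 against day 4.

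Library size alone reversed 13 estimates that were called under TMM or under library size alone. Sign changes called under neither were not counted. Of the 13, only Ifit3b had been called lower before. They were Gbp5 0.90 and Gbp7 1.15 at day 4, Rsad2 0.71, Gbp2 0.78, Gbp5 0.60 and Gbp7 1.03 at day 7, Rsad2 1.03, Gbp2 1.14 and Gbp5 0.99 at day 11, and Ifit3b 0.0538, Gbp2 0.89, Igtp 0.98 and Irgm1 1.03 at day 15. The cause of these changes was not tested. Depth limited the interferon ligands, where a count of 0 does not show absence.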
